A study of Homo sapiens with 27 samples.

Results

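HOX genes were followed in 3 human cell lines transfected with MAML3 constructs. The members are every row of the count table whose symbol is HOX, a cluster letter from A to D and a paralog number, and 22 of the 23230 gene symbols in the table met this. The annotation of the same genome build names 39 HOX genes, and those without a row were not analysed here. The members are 7 HOXA genes on chromosome 7, 5 HOXB genes on chromosome 17, 4 HOXC genes on chromosome 12 and 6 HOXD genes on chromosome 2.

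HOX genes encode transcription factors that bind DNA through a homeodomain, usually together with cofactors of the PBX, MEIS and PKNOX families. Genes with the same paralog number in different clusters descend from a common ancestral gene. Low paralog numbers act towards the head and high numbers towards the tail of the embryo, and many adult cells and tumours keep a HOX pattern related to their tissue of origin. Polycomb proteins keep the clusters silent, and Trithorax proteins keep them active. MAML3 is a Mastermind-like coactivator that joins the cut Notch receptor and its DNA-binding partner on Notch target genes.

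The lines were SK-N-SH, from a neuroblastoma, and BON-1 and QGP-1, both from pancreatic neuroendocrine tumours. Each was transfected by lipid reagent with full-length MAML3 cDNA (FL), with MAML3 cDNA without its first exon (dEx1), or with the empty pCMV6-AC vector. Both cDNAs carried a V5 tag at the C-terminus. RNA was taken on day 3 from 3 biological replicates in each of 9 groups, which gave 27 mRNA libraries. The labels mention no sorting of transfected cells. With 1 neuroblastoma line, comparisons between lines are of these lines, not of tumour types.

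MAML3 was at 2262 to 15759 CPM (counts scaled to library size) in the 18 FL and dEx1 libraries, against 16.98 to 95.05 CPM in the 9 vector libraries. Totals per library were 81739994 to 105566404 counts in SK-N-SH, 73026244 to 110350759 in BON-1 and 79395945 to 120254457 in QGP-1. A floor of 15 count units, taken as 3 fragments of 5 units each, corresponded to 0.115 to 0.210 CPM. It covers counting error only, and genes at or under it in a group are given as CPM without a fold change. Markers of the lines overlapped. Of 8 sympathetic markers, 6 reached 1 CPM in SK-N-SH, TH not among them, 1 in BON-1 and 4 in QGP-1, and their summed level was 96.8 to 243 CPM, 52.5 to 169 CPM and 368 to 489 CPM in these lines. Of 5 mesenchymal neuroblastoma markers, 5 reached it in SK-N-SH, 4 in BON-1 and 0 in QGP-1, and of 5 neuroendocrine markers, 4, 5 and 5 did. Of 8 pancreatic endocrine markers, 0 reached it in SK-N-SH, 5 in BON-1 and 6 in QGP-1, and of 5 epithelial markers, 2, 5 and 5 did.

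Homeobox sequences of HOXD9 and HOXB9 are shown because these paralogs had different levels across the lines while sharing most of their bases, so that reads of one could be assigned to the other. Each is the 180-base homeobox in hg19, 5′ to 3′ on the coding strand, and capitals mark the bases that differ within the pair. HOXD9 (2:176988697-176988876, plus strand, exon 2) is set against HOXB9 (17:46700283-46700462, minus strand, exon 2).
HOXD9: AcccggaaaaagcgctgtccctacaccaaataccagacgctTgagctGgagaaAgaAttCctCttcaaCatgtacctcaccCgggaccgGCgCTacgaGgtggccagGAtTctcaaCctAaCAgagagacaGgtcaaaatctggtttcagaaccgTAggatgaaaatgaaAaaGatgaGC
HOXB9: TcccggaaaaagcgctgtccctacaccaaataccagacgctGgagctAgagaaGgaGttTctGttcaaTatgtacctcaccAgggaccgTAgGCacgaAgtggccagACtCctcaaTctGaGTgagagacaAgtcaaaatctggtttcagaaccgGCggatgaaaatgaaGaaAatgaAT
HOXD9 and HOXB9 shared 152 of 180 bases (84.4%), where the 231 pairs of members had a median of 58.9%, and no pair had an identical stretch longer than their 40 bases. The homeobox lay within 1 exon in 22 of 22 members. Whether reads of one gene were assigned to the other was not tested. The pair was chosen for its different levels, so the values that follow only describe it. In vector libraries HOXD9 was at 23.1, 23.4 and 14.7 CPM in SK-N-SH and 0, 0.104 and 0 CPM in QGP-1, and HOXB9 at 0.759, 1.21 and 0.101 CPM in SK-N-SH and 523, 511 and 453 CPM in QGP-1.

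The lines transcribed different clusters. In vector libraries, 6 of 22 HOX genes averaged 1 CPM or more in SK-N-SH, 14 in BON-1 and 16 in QGP-1. In SK-N-SH these were 4 of 6 HOXD genes, 1 of 5 HOXB genes, 1 of 4 HOXC genes and 0 of 7 HOXA genes. In BON-1 they were 6 of 7 HOXA, 4 of 5 HOXB, 4 of 4 HOXC and 0 of 6 HOXD genes, and in QGP-1 5 of 7 HOXA, 4 of 5 HOXB, 4 of 4 HOXC and 3 of 6 HOXD genes. These are levels in bulk RNA, in which fewer cells with a transcript and less RNA per cell cannot be told apart.

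**Figure D1:**
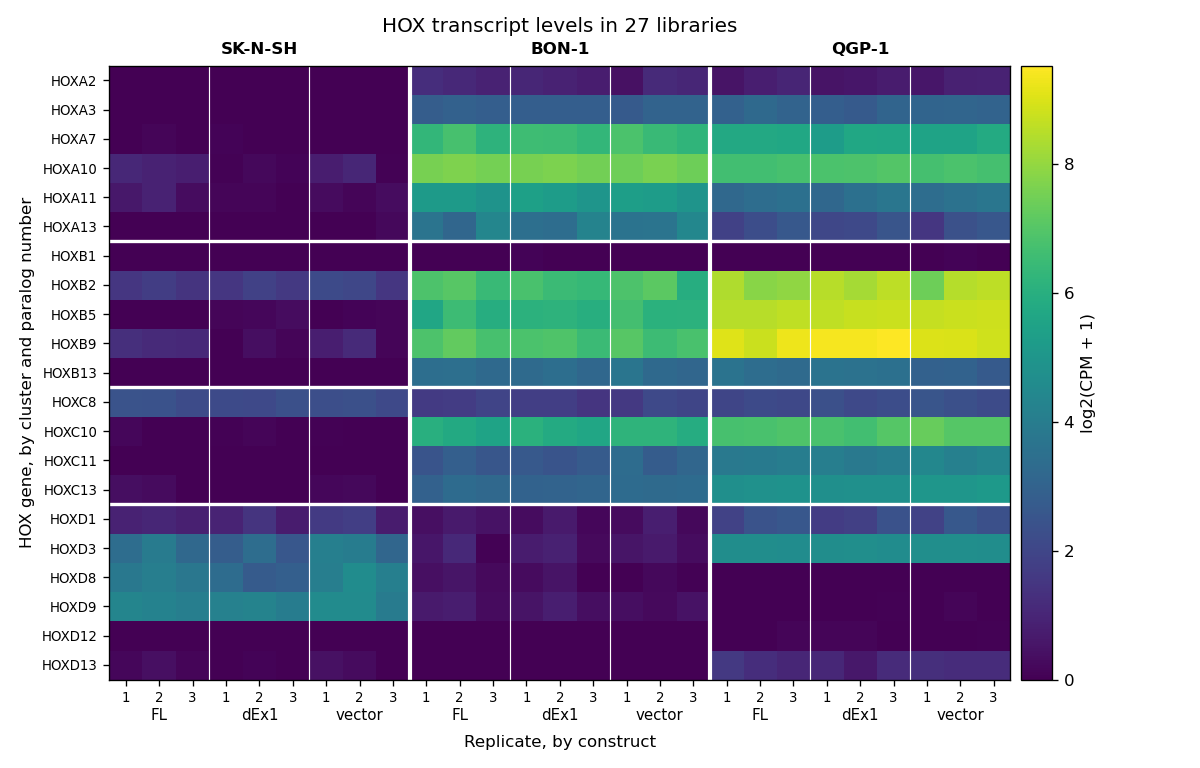
Level of 21 HOX genes (rows, by cluster and paralog number) in the 27 libraries (columns, by line, construct and replicate), coloured by log2(CPM + 1). SK-N-SH is brightest in HOXD3, HOXD8 and HOXD9, BON-1 in HOXA, HOXB and HOXC rows, and QGP-1 in HOXB rows, with HOXD3 also visible.

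The sums below cover only the members of a cluster that have a row. HOXD genes summed to 53.9 ± 12.9 CPM in SK-N-SH vector libraries, 1.17 ± 0.488 CPM in BON-1 and 30.2 ± 1.13 CPM in QGP-1 (SD, n = 3 each). HOXA genes summed to 0.813 ± 0.354 CPM in SK-N-SH, 351 ± 23.3 CPM in BON-1 and 179 ± 10.2 CPM in QGP-1. SK-N-SH was highest in the HOXD sum and BON-1 in the HOXA sum. HOXB genes summed to 3.53 ± 1.27 CPM in SK-N-SH, 304 ± 55.3 CPM in BON-1 and 1231 ± 103 CPM in QGP-1. HOXC genes summed to 3.83 ± 0.450 CPM in SK-N-SH, 86.3 ± 6.99 CPM in BON-1 and 192 ± 17.5 CPM in QGP-1. QGP-1 was highest in both the HOXB and the HOXC sum.

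By paralog number, the lines differed most in how many of the tail-end members were detected. This covers the 22 members with a row, of 39 annotated HOX genes, and not whole clusters. Of 11 members numbered 9 to 13, 1 was detected in SK-N-SH, 8 in BON-1 and 9 in QGP-1. Of 7 members numbered 1 to 3, 3 were detected in SK-N-SH, 3 in BON-1 and 4 in QGP-1, and of 4 members numbered 5 to 8, 2, 3 and 3 were. Across lines, 11 members were detected in BON-1 and QGP-1 but not in SK-N-SH, and 2, HOXB2 and HOXC8, in all 3 lines.

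Per kilobase of transcript, a scale on which genes can be compared, the highest members in SK-N-SH vector libraries were HOXD9 at 10.9 ± 2.65, HOXD8 at 7.08 ± 1.64 and HOXD3 at 5.33 ± 1.82 CPM per kb (SD, n = 3). In BON-1 they were HOXA10 at 70.01 ± 4.65, HOXB2 at 62.4 ± 24.2 and HOXA7 at 45.2 ± 9.71 CPM per kb. In QGP-1 they were HOXB5 at 231 ± 8.66, HOXB9 at 192 ± 14.4 and HOXB2 at 178 ± 67.3 CPM per kb. Neighbours in these orders overlapped in their ranges, except HOXB5 and HOXB9 in QGP-1.

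**Figure D2:**
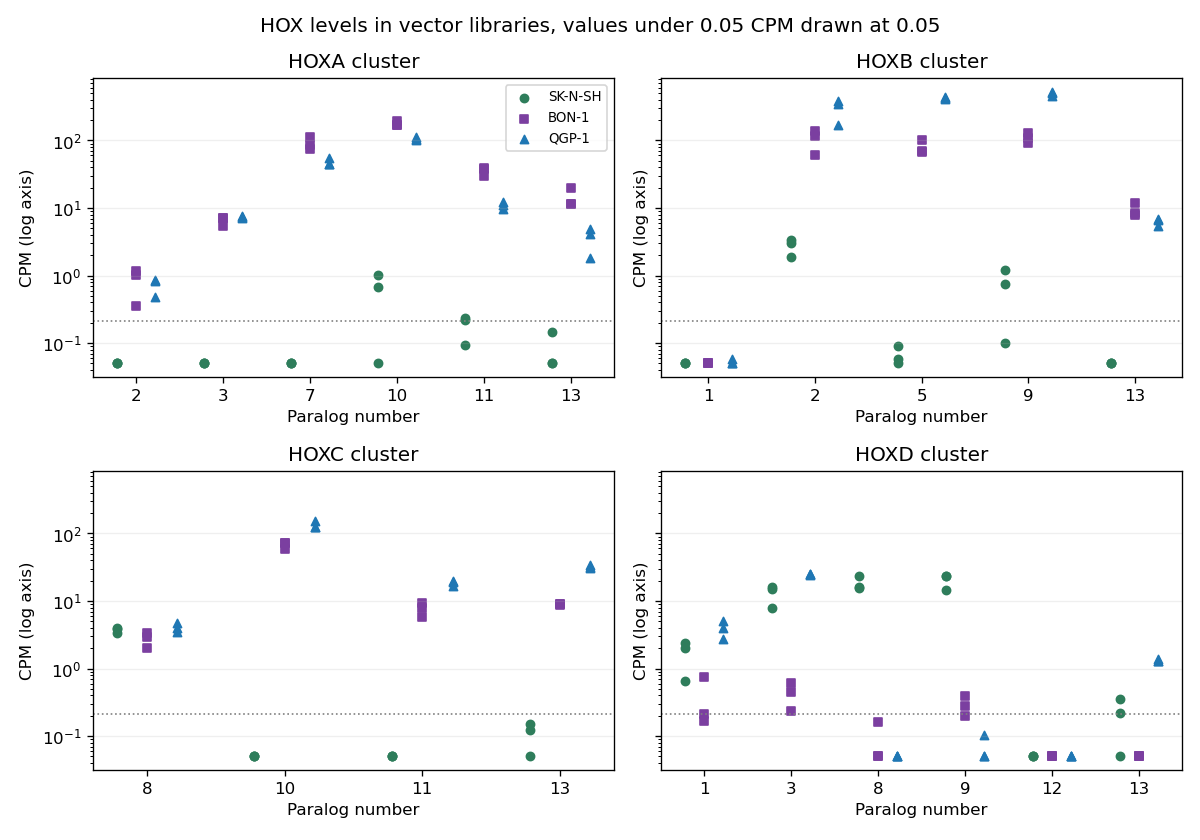
CPM (log axis) of 21 HOX genes in the 3 vector libraries of each line, by cluster and paralog number; the dotted line is the highest floor, 0.210 CPM, and values under 0.05 CPM are drawn at 0.05. SK-N-SH points lie near or under the floor for most HOXA genes and far above BON-1 and QGP-1 at HOXD8 and HOXD9.

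Within the HOXD cluster the lines used different genes. HOXD8 (2:176994422-176997423) and HOXD9 (2:176987447-176989665), which pattern trunk and limb, reached a mean of 1 CPM in SK-N-SH only. HOXD8 had 15.7, 23.5 and 16.4 CPM in SK-N-SH vector libraries, against 0, 0.159 and 0.0472 CPM in BON-1 and 0 in all 9 QGP-1 libraries. HOXD9 had 23.1, 23.4 and 14.7 CPM in SK-N-SH, against 0.280, 0.196 and 0.389 CPM in BON-1 and 0, 0.104 and 0 CPM in QGP-1. Every SK-N-SH vector library was above every other vector library for both genes.

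The order of lines was different for HOXD3 (2:177001340-177037830), a gene of the neck region, and HOXD13 (2:176957449-176960672), the last gene of the cluster and a regulator of digits and hindgut. HOXD3 had 16.1, 15.2 and 7.92 CPM in SK-N-SH vector libraries, 0.448, 0.613 and 0.236 CPM in BON-1 and 25.03, 24.9 and 24.7 CPM in QGP-1. HOXD13 had 0.354, 0.221 and 0 CPM in SK-N-SH, 0 in all 9 BON-1 libraries and 1.41, 1.29 and 1.29 CPM in QGP-1. QGP-1 was highest for both. HOXD1 was detected in the same lines as HOXD3, and HOXD12 was under the floor in all 27 libraries.

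SK-N-SH against BON-1 was tested for 20 of 22 members with edgeR's quasi-likelihood test on the 9 vector libraries (adjusted p, Benjamini-Hochberg over all genes tested, threshold 0.05). Past the threshold were 19, 5 higher and 14 lower in SK-N-SH, where 54.5% of all genes passed, 26.8% higher and 27.7% lower. The 5 higher genes were all tested HOXD genes, and the 14 lower ones were 7 of 7 HOXA, 4 of 4 HOXB and 3 of 4 HOXC genes. HOXD3 was higher in SK-N-SH (log2 4.90, SE 0.43, adjusted p = 2.04e-05), as was HOXD9 (log2 6.13, SE 0.86, adjusted p = 0.000327). HOXD8 passed with an adjusted p of 0.000320, with the BON-1 mean under the floor. HOXD1 (log2 2.15, SE 0.71, adjusted p = 0.0281) and HOXD13 (adjusted p = 0.0205) passed although 1 SK-N-SH library each overlapped the BON-1 values.

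Several of the lower genes were at 0 in all 3 SK-N-SH vector libraries, so their folds are lower bounds against the floor of each library. HOXA7, a trunk-patterning gene, had 113, 86.6 and 74.3 CPM in BON-1 and was at least 548-fold lower in SK-N-SH (adjusted p = 9.99e-07). HOXB13, a gene of the tail end and the prostate, had 11.9, 8.52 and 7.91 CPM in BON-1 and was at least 56.8-fold lower (adjusted p = 5.34e-06). HOXB2, a hindbrain gene detected in all lines, had 2.79 ± 0.813 CPM in SK-N-SH against 105 ± 40.7 CPM in BON-1 (log2 -5.25, SE 0.47, adjusted p = 2.33e-05). The 2 lines did not overlap in 17 of 20 tested members, beside 64.7% of all genes.

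SK-N-SH against QGP-1 gave 16 of 20 tested members past the threshold, 2 higher and 14 lower, where 55.0% of all genes passed, 26.9% higher and 28.1% lower. HOXD8 was at least 114-fold higher in SK-N-SH (adjusted p = 0.000138). HOXD9 had 20.4 ± 4.96 CPM in SK-N-SH against 0.0348 ± 0.0602 CPM in QGP-1 (adjusted p = 8.02e-05). These were the 2 higher genes, and the lower ones were again 7 HOXA, 4 HOXB and 3 HOXC genes. HOXB5, which acts in the foregut and the enteric nervous system, had 0, 0.0583 and 0.0896 CPM in SK-N-SH against 412, 431 and 444 CPM in QGP-1 (adjusted p = 1.01e-06). HOXC11, a hindlimb gene, was at 0 in SK-N-SH and had 20.1, 16.7 and 19.3 CPM in QGP-1, at least 112-fold lower in SK-N-SH (adjusted p = 2.73e-06). HOXA7 was at least 293-fold lower (adjusted p = 1.11e-06).

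HOXD3, HOXD1, HOXD13 and HOXC8 did not pass between SK-N-SH and QGP-1. All SK-N-SH vector values of HOXD3, HOXD1 and HOXD13 were under all QGP-1 values, with adjusted p of 0.0515 for HOXD3 (log2 -0.94, SE 0.36), 0.155 for HOXD1 (log2 -1.22, SE 0.68) and 0.0845 for HOXD13. The groups did not overlap in 19 of 20 tested members, beside 67.1% of all genes.

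BON-1 against QGP-1 gave 14 of 20 tested members past the threshold, 5 higher and 9 lower in BON-1, where 43.6% of all genes passed, 22.6% higher and 21.0% lower. The 14 include HOXD8, whose mean was under the floor in both lines. The 3 HOXA genes that passed were higher in BON-1, and the 3 HOXB and 3 HOXC genes that passed were lower. HOXA11, a limb and uterus gene, had 35.3 ± 5.02 CPM in BON-1 against 11 ± 1.41 CPM in QGP-1 (log2 1.68, SE 0.29, adjusted p = 0.00156). HOXA7 had 91.2 ± 19.6 CPM in BON-1 against 48.7 ± 6.09 CPM in QGP-1 (log2 0.91, SE 0.22, adjusted p = 0.0131). BON-1 libraries were above QGP-1 libraries throughout for both genes.

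The genes lower in BON-1 were HOXB2, HOXB5, HOXB9, HOXC10, HOXC11, HOXC13, HOXD1, HOXD3 and HOXD13. HOXB5 had 101, 66.9 and 69.01 CPM in BON-1 against 412, 431 and 444 CPM in QGP-1 (log2 -2.44, SE 0.38, adjusted p = 0.000894). HOXB9, a gene of the thoracic region, had 111 ± 18.8 CPM in BON-1 against 495 ± 37.2 CPM in QGP-1 (log2 -2.16, SE 0.56, adjusted p = 0.0126). HOXD3 differed by -5.84 (SE 0.45, adjusted p = 1.78e-05) and HOXD1 by -3.38 (SE 0.74, adjusted p = 0.00547). HOXD8 and HOXD9 were the other 2 higher calls, with means under the floor in both lines for HOXD8 and in QGP-1 for HOXD9. HOXD8 had a measured level only in SK-N-SH, whose libraries shared the filter. Its call therefore shows no difference between BON-1 and QGP-1. Without vector replicate 3 of QGP-1, 9 members passed, with no share of all genes given for that fit. The groups did not overlap in 18 of 20 tested members, beside 54.1% of all genes.

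HOXC8 (12:54402769-54406553), which patterns the thoracic skeleton and motor neurons, was the 1 tested member that passed between no pair of lines. It had 3.84, 4.01 and 3.32 CPM in SK-N-SH vector libraries, 2.002, 3.32 and 2.92 CPM in BON-1 and 4.75, 4.02 and 3.51 CPM in QGP-1. On the log2 scale, its difference was 0.43 for SK-N-SH against BON-1 (nominal 95% interval -0.16 to 1.02). It was -0.15 for SK-N-SH against QGP-1 (-0.73 to 0.44) and -0.57 for BON-1 against QGP-1 (-1.17 to 0.02). HOXB1, a hindbrain gene, and HOXD12 were too low to be tested.

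Most noncoding genes within the clusters were lower in SK-N-SH. Of 16 in the table, 14 were tested, with SK-N-SH higher than BON-1 in 2 and lower in 12, and higher than QGP-1 in 1 and lower in 13, where 54.5% and 55.0% of all genes passed. HOXD-AS2, antisense across HOXD8 and HOXD9, had 8.33, 7.39 and 5.21 CPM in SK-N-SH vector libraries, against 0.112, 0 and 0.0472 CPM in BON-1, and was at 0 in all 3 QGP-1 vector libraries. HAGLR, antisense between HOXD3 and HOXD1, had 11.8 ± 0.707 CPM in SK-N-SH, 3.05 ± 1.03 CPM in BON-1 and 50.4 ± 11.1 CPM in QGP-1. These are the line orders of HOXD8 and of HOXD3. HOTAIRM1, in the HOXA cluster, had 11.6 ± 0.925 CPM in BON-1 against 0.461 ± 0.342 CPM in QGP-1 (log2 4.65, SE 0.93, adjusted p = 0.00352), and HOXB-AS3, across HOXB5, had 0.0299 ± 0.0518 CPM in SK-N-SH, 54.6 ± 23.01 CPM in BON-1 and 84.2 ± 7.96 CPM in QGP-1.

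No source used here says whether reads were counted by strand, so a coding gene and an antisense gene over it cannot be told apart where they overlap. HOXD8 and HOXD9 lie with their whole annotated lengths, 3002 and 2219 bases, within HOXD-AS2, and HOXB5 with 2523 bases within HOXB-AS3. HAGLR covers 9052 bases of HOXD3 and 291 bases of HOXD1. The part of shared reads in these line orders was not tested.

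Among HOX cofactors, MEIS3 had 77.7 ± 16.2 CPM in SK-N-SH, 1.90 ± 0.526 CPM in BON-1 and 48.8 ± 1.59 CPM in QGP-1 (log2 5.34, SE 0.28, adjusted p = 1.36e-06 for SK-N-SH against BON-1). PBX4 had 2.37 ± 0.0960 CPM in SK-N-SH, 2.97 ± 0.720 CPM in BON-1 and 0.237 ± 0.155 CPM in QGP-1 (log2 3.31, SE 0.51, adjusted p = 0.000528 for SK-N-SH against QGP-1). BON-1 was thus lowest in MEIS3 and QGP-1 lowest in PBX4. Of 7 tested cofactors, 1 was higher and 3 lower in SK-N-SH than in BON-1, and 3 higher and 2 lower than in QGP-1. These 4 and 5 of 7 stand beside 54.5% and 55.0% of all genes.

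Among regulators upstream of the clusters, CDX2, a homeobox factor that activates posterior HOX genes and marks intestinal epithelium, was at 0 in all SK-N-SH vector libraries. It had 82.7, 79.5 and 87.3 CPM in BON-1 and 23.4, 14.6 and 14.1 CPM in QGP-1, at least 500.0-fold lower in SK-N-SH than in BON-1 (adjusted p = 1.21e-06) and at least 104-fold lower than in QGP-1 (adjusted p = 2.04e-06). RARG, a retinoic acid receptor, ran the other way, with 59.4 ± 7.31 CPM in SK-N-SH, 3.97 ± 0.504 CPM in BON-1 and 9.26 ± 1.13 CPM in QGP-1. ALDH1A2, which makes retinoic acid, was at 0 in all 3 SK-N-SH vector libraries and had 237 ± 37.3 CPM in BON-1 and 0.138 ± 0.0736 CPM in QGP-1. Of 11 tested regulators, 5 were higher and 3 lower in SK-N-SH against each pancreatic line, where 54.5% of all genes passed against BON-1 and 55.0% against QGP-1.

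Polycomb and Trithorax-side genes are given beside the 54.5% of all genes that passed for SK-N-SH against BON-1 and the 55.0% against QGP-1, each about evenly split by direction. Of 22 Polycomb genes, 6 were higher and 3 lower in SK-N-SH than in BON-1, and 4 higher and 8 lower than in QGP-1. PCGF5, a subunit of a variant Polycomb complex, had 109 ± 14.4 CPM in SK-N-SH, 17.6 ± 3.09 CPM in BON-1 and 27.04 ± 6.003 CPM in QGP-1. Of 17 Trithorax-side genes, 5 were higher and 6 lower in SK-N-SH than in BON-1, and 3 higher and 5 lower than in QGP-1. KDM6A, an H3K27 demethylase, had 56.6 ± 8.41 CPM in SK-N-SH, 28.1 ± 5.37 CPM in BON-1 and 7.26 ± 0.983 CPM in QGP-1. Of 14 tested genes beside the clusters, 3 were higher and 5 lower in SK-N-SH than in BON-1, and 2 higher and 7 lower than in QGP-1, beside the same 54.5% and 55.0% of all genes.

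In SK-N-SH, HOXD8 was lower with dEx1. It had 9.41, 5.65 and 6.38 CPM with dEx1 and 15.7, 23.5 and 16.4 CPM with vector. All dEx1 libraries lay under all vector libraries (log2 -1.37, SE 0.23, adjusted p = 0.0168, edgeR on the 9 libraries of the line). HOXD8 was the 1 member past the threshold of 11 tested, where 4.47% of all genes passed, 0.831% higher and 3.64% lower. At an unadjusted p under 0.05 there were 3 members, HOXD8, HOXD3 and HOXA10, where 22.7% of all genes were. The fitted changes of all 11 were negative, 5 of them of genes at or near the floor in a group. Their median was -1.37, where all genes had a median of 0.01. It includes the folds of these 5 genes, so it does not measure a fall shared by the members. The groups did not overlap in 1 of 11 members, beside 27% of all genes. Leaving out dEx1 replicate 3 gave an adjusted p of 0.0678, vector replicate 1 0.0505 and vector replicate 2 0.0604. It was 0.396 in a fit of all 27 libraries and 0.0509 in one of the 6 compared.

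The other HOXD genes did not pass with dEx1 in SK-N-SH. HOXD3 had 6.002, 9.45 and 4.95 CPM with dEx1 and 16.1, 15.2 and 7.92 CPM with vector (log2 -0.94, SE 0.34, adjusted p = 0.152). HOXD9 had 17.4, 18.1 and 14.8 CPM with dEx1 and 23.1, 23.4 and 14.7 CPM with vector (log2 -0.28, SE 0.18, adjusted p = 0.412). Vector replicate 3 was the lowest vector library for both and overlapped the dEx1 values, whereas for HOXD8 it lay above all dEx1 values. Without vector replicate 3, 4 members passed, HOXA10, HOXD3, HOXD8 and HOXD9. No share of all genes is given for that fit, so this count has none beside it. Replicate 3 was lowest within FL, within dEx1 and within vector for HOXD1, HOXD3 and HOXD9. These were 3 of the 6 members at 1 CPM or more, beside 17.2% of genes at that level.

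**Figure D3:**
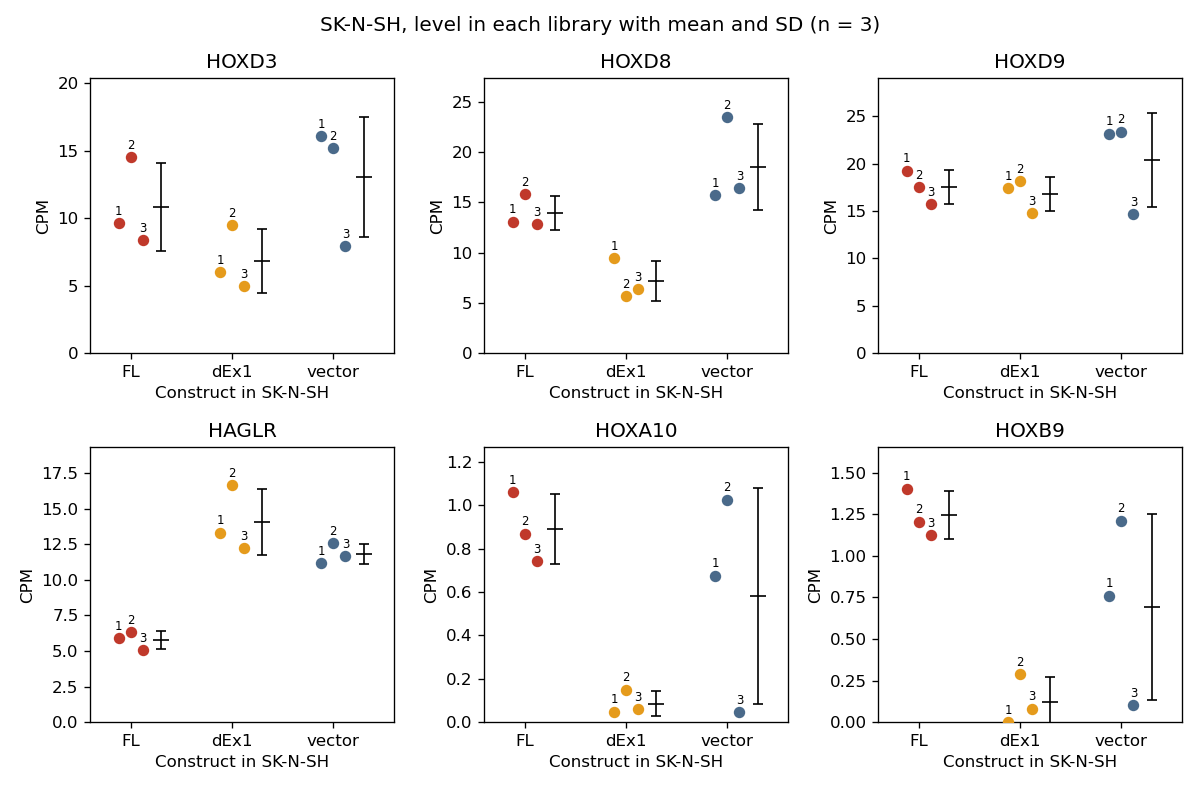
CPM of 5 HOX genes and of the antisense gene HAGLR in the 9 SK-N-SH libraries, with replicate numbers beside the points and the mean and SD (n = 3) of FL, dEx1 and vector. HOXD8 is lowest with dEx1 (5.65 to 9.41 CPM), and HAGLR is lowest with FL (5.05 to 6.31 CPM).

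FL against vector in SK-N-SH gave 0 of 11 tested members past the threshold with edgeR, 0 with DESeq2 and 0 at an unadjusted p under 0.05, where 1.74% of all genes passed the adjusted threshold, 0.934% higher and 0.804% lower, and 15.7% the unadjusted one. The lowest p was that of HOXB2, with 1.82, 2.31 and 1.68 CPM with FL and 3.42, 3.07 and 1.87 CPM with vector (log2 -0.53, SE 0.28, adjusted p = 0.411). HOXD8 followed, with 13.1, 15.8 and 12.8 CPM with FL and 15.7, 23.5 and 16.4 CPM with vector (log2 -0.42, SE 0.23, adjusted p = 0.418). Both overlapped between groups, and the groups did not overlap in 1 of 11 members, beside 21.6% of all genes. HOXC8 differed by 0.11 with FL (nominal 95% interval -0.24 to 0.46) and by -0.04 with dEx1 (-0.40 to 0.31). Both comparisons use the same 3 vector libraries, in each line.

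The constructs differed from each other in SK-N-SH for HOXD8 and HOXA10. HOXD8 had 9.41, 5.65 and 6.38 CPM with dEx1 and 13.1, 15.8 and 12.8 CPM with FL (log2 -0.95, SE 0.23, adjusted p = 0.0196). HOXA10 (7:27210224-27219880), a gene of the uterus and posterior axis, had 0.0480, 0.150 and 0.0581 CPM with dEx1, under the floor, and 1.06, 0.870 and 0.742 CPM with FL (adjusted p = 0.0401). These 2 of 11 tested members, both lower with dEx1, stand beside 22% of all genes, 10.5% higher and 11.5% lower. At an unadjusted p under 0.05 there were 5 members, where 35.6% of all genes were. The groups did not overlap in 5 of 11 members, beside 43.4% of all genes. For HOXD8, leaving out FL replicate 1 gave an adjusted p of 0.0501, FL replicate 2 0.0667, dEx1 replicate 2 0.0634 and dEx1 replicate 3 0.0709, and the fit of all 27 libraries gave 0.468. HOXA10 was lost without any 1 of the 6 FL and dEx1 libraries or vector replicate 1, with adjusted p of 0.0593 to 0.125.

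Other members at this low level had like values but did not pass. HOXB9 had 0, 0.290 and 0.0813 CPM with dEx1, 1.40, 1.20 and 1.124 CPM with FL and 0.759, 1.21 and 0.101 CPM with vector (adjusted p = 0.0765 for dEx1 against FL). HOXA11 had 0.108, 0.0858 and 0 CPM with dEx1, 0.544, 0.870 and 0.237 CPM with FL and 0.218, 0.0933 and 0.235 CPM with vector (adjusted p = 0.0726). HOXA10 in vector libraries was at 0.676, 1.03 and 0.0448 CPM. For HOXA10 and HOXB9, vector replicate 3 lay with the dEx1 libraries, and the other vector libraries lay above them.

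HAGLR, the antisense gene between HOXD3 and HOXD1 (2:177028779-177053686), fell with FL instead. It had 5.89, 6.31 and 5.05 CPM with FL and 11.2, 12.6 and 11.7 CPM with vector (log2 -1.04, SE 0.15, adjusted p = 0.0226). With dEx1 it had 13.3, 16.7 and 12.2 CPM, above all FL libraries (log2 1.30, SE 0.15, adjusted p = 0.00133 for dEx1 against FL) and overlapping vector (log2 0.25, SE 0.15, adjusted p = 0.356). It was the 1 call in each of the first 2 comparisons among 5 tested noncoding genes, where 1.74% and 22% of all genes passed. The fall with FL was lost without FL replicate 1 (adjusted p = 0.101), FL replicate 2 (0.0631), dEx1 replicate 1 (0.0508), vector replicate 1 (0.0632) or vector replicate 2 (0.0724), in the fit of all 27 libraries (0.119) and in that of the 6 compared (0.0669). The difference between constructs passed under all 17 alternatives. HOXD-AS2 had 4.17, 6.34 and 5.26 CPM with dEx1 and 8.33, 7.39 and 5.21 CPM with vector (log2 -0.41, SE 0.23, adjusted p = 0.331).

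Of 7 HOX cofactors in SK-N-SH, 2 were higher with dEx1 than with FL, where 10.5% of all genes were higher and 22% passed in either direction. MEIS3 had 115, 111 and 120.5 CPM with dEx1 and 54.9, 55.1 and 62.01 CPM with FL (log2 1.02, SE 0.14, adjusted p = 0.00234), and passed under all 17 alternatives. MEIS2 had 102 ± 20.7 CPM with dEx1 and 56.9 ± 17.1 CPM with FL (log2 0.85, SE 0.21, adjusted p = 0.0237), and was lost without FL replicate 1 (adjusted p = 0.0731), FL replicate 3 (0.0684) or dEx1 replicate 1 (0.0784). The median over the 7 was 0.32, where all genes had 0.00. Against vector, 0 of 7 passed with edgeR with either construct. At an unadjusted p under 0.05 there were 3 with FL and 4 with dEx1, where 15.7% and 22.7% of all genes were.

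Among chromatin genes in SK-N-SH, PCGF5 was the 1 of 22 Polycomb genes past the threshold for dEx1 against vector, where 4.47% of all genes passed. It had 67.3, 60.2 and 46.7 CPM with dEx1 and 126, 98.2 and 104 CPM with vector (log2 -0.91, SE 0.14, adjusted p = 0.0143), and an adjusted p of 0.0615 without vector replicate 1. Of 17 Trithorax-side genes, 2 fell: AFF1, part of the super elongation complex, with 39.3 ± 3.77 CPM with dEx1 against 66.1 ± 7.54 CPM with vector (log2 -0.75, SE 0.14, adjusted p = 0.0236), and KDM6A, with 34.3 ± 5.11 CPM against 56.6 ± 8.41 CPM (log2 -0.72, SE 0.15, adjusted p = 0.0357). AFF1 was lost without dEx1 replicate 1 (0.0857) or 3 (0.0876) or vector replicate 1 (0.101) or 2 (0.0986), and KDM6A without any dEx1 library, FL replicate 1 or vector replicate 1 or 2, with adjusted p up to 0.147, and in the fit of the 6 compared (0.0701). AFF1 was also lower with dEx1 than with FL (log2 -1.02, SE 0.14, adjusted p = 0.00218). Between dEx1 and FL, 1 Polycomb gene was higher and 2 were lower, 1 Trithorax-side gene was higher and 2 were lower, and 1 of 10 regulators and 1 of 13 neighbours went each way, beside 22% of all genes.

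In BON-1 no HOX gene passed with edgeR or with DESeq2. With FL, 0 of 19 tested members passed and 1 had an unadjusted p under 0.05, where 0.00671% and 3.86% of all genes did. With dEx1, 0 passed and 1 had an unadjusted p under 0.05, where 0.0134% and 2.88% of all genes did. Between dEx1 and FL, 0 passed and 0 had an unadjusted p under 0.05, where 0.00% and 1.05% of all genes did. Of 19 members, the groups did not overlap in 1 with FL, 2 with dEx1 and 0 between constructs, beside 8.62%, 8.30% and 5.63% of all genes.

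HOXC11 had the lowest p with both constructs in BON-1. It had 4.50, 6.31 and 4.86 CPM with FL, 5.26, 4.49 and 5.62 CPM with dEx1 and 9.23, 5.76 and 7.86 CPM with vector. The dEx1 libraries lay under all vector libraries, and the FL libraries overlapped them. It differed by -0.56 with FL (SE 0.23, adjusted p = 0.928) and by -0.59 with dEx1 (SE 0.23, adjusted p = 0.916). Next were HOXC10, a gene of the lumbar region, with FL (log2 -0.32, SE 0.18, adjusted p = 0.928) and HOXC13, a hair gene, with dEx1 (log2 -0.33, SE 0.16, adjusted p = 0.916). Between dEx1 and FL the lowest p were those of HOXB9 (log2 -0.23, SE 0.19, adjusted p = 1) and HOXC13 (log2 -0.16, SE 0.16, adjusted p = 1).

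The abundant HOXA10 of BON-1 had 191, 204 and 182 CPM with FL, 189.7, 199 and 178 CPM with dEx1 and 170.5, 192 and 172 CPM with vector. Its difference was 0.10 with FL (nominal 95% interval -0.11 to 0.32) and 0.08 with dEx1 (-0.14 to 0.29), with overlapping groups. HOXA13, the last HOXA gene, had 11.6, 7.86 and 19.8 CPM with FL, 10.2, 9.50 and 18.3 CPM with dEx1 and 11.3, 11.7 and 19.9 CPM with vector, so that replicate 3 was highest in each group. In 5 of 14 members at 1 CPM or more, replicate 3 was lowest in each group, beside 14.8% of genes at that level.

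**Figure D4:**
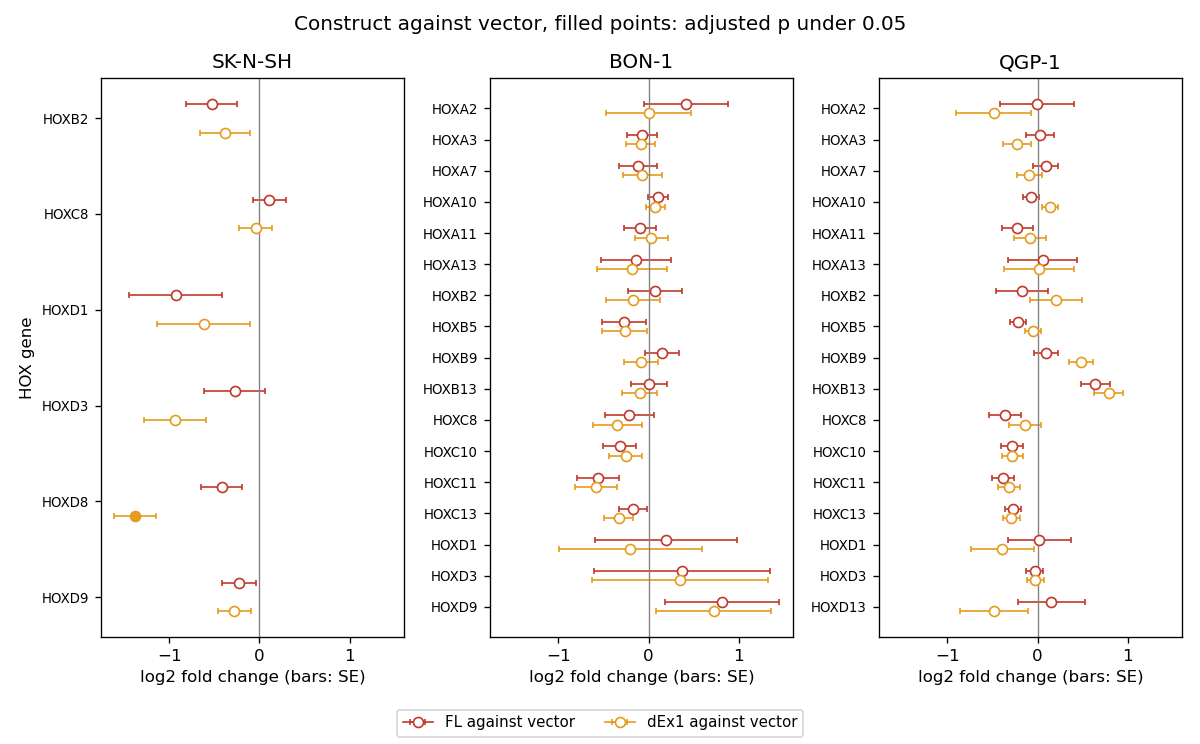
Log2 fold change of HOX genes with FL (red) and dEx1 (orange) against vector in the 3 lines, with SE as bars; filled points passed the adjusted threshold, and genes at or near the floor in a group are left out. HOXD8 with dEx1 in SK-N-SH (-1.37) is the 1 filled point.

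In QGP-1 no HOX gene passed with edgeR, and DESeq2 called 2, HOXB13 and HOXC13, with each construct against vector. The shares of all genes given here are from edgeR, and none is given for DESeq2, so its calls have no share beside them. With FL, 0 of 18 tested members passed with edgeR and 6 had an unadjusted p under 0.05, where 0.0275% and 5.08% of all genes did. With dEx1, 0 passed and 5 had an unadjusted p under 0.05, where 0.0207% and 3.63% of all genes did. The groups did not overlap in 8 of 18 members with FL and 5 of 18 with dEx1, beside 11.1% and 8.91% of all genes.

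HOXB13 (17:46802125-46806112) had the lowest p in QGP-1. It had 11.5, 9.48 and 8.78 CPM with FL, 11.5, 10.98 and 10.4 CPM with dEx1 and 6.76, 6.92 and 5.46 CPM with vector. All FL and dEx1 libraries lay above all vector libraries. Its difference was 0.64 with FL (SE 0.16, adjusted p = 0.645 with edgeR and 0.0419 with DESeq2) and 0.79 with dEx1 (SE 0.16, adjusted p = 0.613 with edgeR and 0.00337 with DESeq2). HOXB9 had 669, 663 and 733 CPM with dEx1, 533, 435 and 616 CPM with FL and 523, 511 and 453 CPM with vector (log2 0.48, SE 0.13, adjusted p = 1 and unadjusted p = 0.00524 for dEx1 against vector, edgeR). Its dEx1 libraries lay above all others.

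The 4 HOXC genes had negative changes with both constructs in QGP-1, none past the threshold with edgeR. HOXC13 had 25.7, 27.1 and 27.7 CPM with FL, 26.05, 26.3 and 26.8 CPM with dEx1 and 31.3, 31.4 and 34.6 CPM with vector (log2 -0.27, SE 0.09, adjusted p = 0.894 with FL and log2 -0.29, SE 0.09, adjusted p = 1 with dEx1). HOXC11 had 13.5, 13.9 and 15.6 CPM with FL, 15.8, 13.5 and 15.4 CPM with dEx1 and 20.1, 16.7 and 19.3 CPM with vector (log2 -0.38, SE 0.12, adjusted p = 0.894 with FL and log2 -0.32, SE 0.12, adjusted p = 1 with dEx1). Both genes had all FL and dEx1 libraries under all vector libraries. The HOXC median was -0.32 with FL and -0.28 with dEx1 in QGP-1, and -0.27 with FL and -0.34 with dEx1 in BON-1, where all 4 changes were also negative with each construct.

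**Figure D5:**
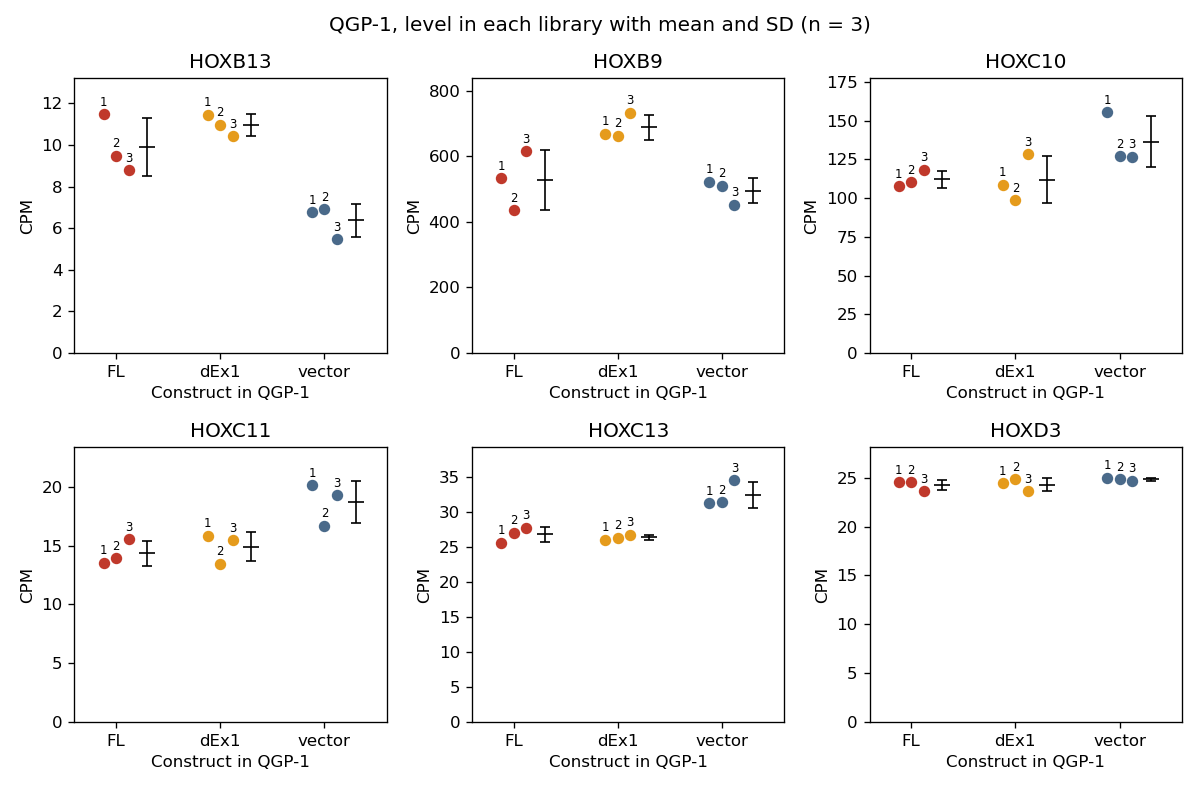
CPM of 6 HOX genes in the 9 QGP-1 libraries, with replicate numbers beside the points and the mean and SD (n = 3) of FL, dEx1 and vector. HOXB13 lies higher and HOXC11 and HOXC13 lie lower with both constructs than with vector, and HOXD3 is within 23.6 to 25.0 CPM.

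HOXD3, which in SK-N-SH differed by -0.94 between dEx1 and vector without passing (nominal 95% interval -1.61 to -0.27), had a narrow range in QGP-1. It had 24.6, 24.5 and 23.7 CPM with FL, 24.4, 24.9 and 23.6 CPM with dEx1 and 25.03, 24.9 and 24.7 CPM with vector. The FL libraries lay under all vector libraries by a small margin, and the dEx1 libraries overlapped them. Its difference in QGP-1 was -0.03 with FL (-0.21 to 0.15) and -0.02 with dEx1 (-0.20 to 0.16).

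Between dEx1 and FL in QGP-1, 0 of 18 members passed with edgeR and 0 with DESeq2, where 0.0138% of all genes passed with edgeR, 0.00689% higher and 0.00689% lower. At an unadjusted p under 0.05 there were 2, where 1.28% of all genes were: HOXB9 (log2 0.39, SE 0.13, adjusted p = 1) and HOXA10 (log2 0.21, SE 0.09, adjusted p = 1). The groups did not overlap in these 2 of 18 members, beside 4.43% of all genes. Of the cofactors, chromatin genes, regulators, noncoding genes and neighbours, 0 of 84 tested in BON-1 and 0 of 85 in QGP-1 passed any construct comparison with edgeR. At an unadjusted p under 0.05 there were 5 with FL, 3 with dEx1 and 1 between constructs in BON-1. Of all genes there, 3.86%, 2.88% and 1.05% were. In QGP-1 there were 9, 4 and 2, where 5.08%, 3.63% and 1.28% of all genes were.

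Construct effects were compared between lines in 1 edgeR fit of all 27 libraries, and 0 of 20 tested members passed for either construct and any pair of lines. For FL, 0.284% of all genes passed for SK-N-SH minus BON-1, 0.160% for SK-N-SH minus QGP-1 and 0.0118% for BON-1 minus QGP-1. For dEx1, 0.332%, 0.521% and 0.00% passed. At an unadjusted p under 0.05 there were 6, 6 and 2 members for FL, where 9.38%, 8.64% and 4.63% of all genes were, and 7, 5 and 1 for dEx1, where 10.9%, 10.3% and 3.91% were. DESeq2 called 1, 3 and 0 members for FL and 3, 3 and 0 for dEx1. The shares above are those of edgeR, and none is given for DESeq2.

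The lowest adjusted p with edgeR was that of HOXA10 for dEx1, 0.0717 for SK-N-SH minus QGP-1 and 0.0850 for SK-N-SH minus BON-1, with SK-N-SH dEx1 libraries under the floor. HOXD8 is given no difference of effects between lines, since its vector mean was under the floor in BON-1 and it was at 0 in QGP-1, which leaves no measured level in either line for a fall.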

How the data were processed

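RNA-seq of 27 libraries was analysed, 3 in each of 9 groups. Per the submitters' processing notes, the authors used Trimmomatic, HISAT2, hg19 and StringTie. The deposited values are whole-number estimated counts per gene. The step from StringTie to counts, the annotation, the counting strand and what 1 fragment is worth are not given in the sources used here. Of 23234 rows, 4 repeated a symbol, which left 23230.

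Tests were run in edgeR 4.0.16 under R 4.3.3 (with limma 3.58.1), with DESeq2 1.42.0 as an alternative, and plots in Python 3.11.15 with matplotlib 3.10.9. Low genes were removed by filterByExpr and TMM set the library scale. The quasi-likelihood F test gave p-values, adjusted by Benjamini-Hochberg over all genes tested, with a threshold of 0.05. Each line was fitted on its 9 libraries for construct comparisons, the 9 vector libraries for lines, and all 27 for differences of effects. Levels are CPM scaled with TMM over 27 libraries. Intervals are the log2 fold change ± 1.96 SE. A lower bound sets the group mean against a floor of 15 units in each library of the group at 0. The fit was tested on simulated data. Homeobox sequence and coordinates are from the hg19 reference.

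Members past the threshold in a construct comparison were named, otherwise the 2 with the lowest p. Between lines the 3 largest and 3 smallest folds were named. In each line the plan was the 3 members with the highest mean CPM and those detected in 1 line. The highest members are ranked in the text by CPM per kb instead. Up to 4 genes of each other list were named. Further members are named after their values were seen, to describe clusters and replicates. Some genes and sequences are not reported here. The members and lists were chosen with earlier results of these data known.

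Replicate numbers were taken as pairing libraries where every same-number correlation of residuals was over 0.1. This held in BON-1 (0.113 to 0.497) and for dEx1 and FL in QGP-1 (0.223 to 0.568), and the fit with this block changed no call there. The labels call the replicates biological without naming cultures, so p-values measure the spread between these libraries. Alternatives were no filter, a filter at a mean of 2 CPM, DESeq2 size factors, DESeq2, a replicate block, all 27 libraries, only the 6 compared, and leaving out each library.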

Additional observations from a re-analysis of the deposited data

Results flagged for a closer look

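The effect of FL on CBX1, the heterochromatin protein gene beside the HOXB cluster, differed between SK-N-SH and BON-1 with edgeR on 27 libraries (log2 -1.99, SE 0.42, adjusted p = 0.0466). FL against vector itself did not pass for CBX1 in either line with edgeR. The difference between lines kept its call in 5 of 16 alternatives. CBX1 had 105, 87.5 and 119 CPM with FL and 209.8, 106 and 255 CPM with vector in SK-N-SH, and 68.8, 70.7 and 62.98 CPM with FL and 20.2, 39.6 and 33.9 CPM with vector in BON-1. The FL and vector libraries overlapped in SK-N-SH and not in BON-1. The adjusted p of the difference between lines was 0.0573 with no filter, 0.0531 with DESeq2 size factors and 0.00168 with the DESeq2 test. In SK-N-SH it was 0.0976 without FL replicate 1, 0.147 without FL replicate 2, 0.107 without vector replicate 1 and 0.122 without vector replicate 3. In BON-1 it was 0.110, 0.104 and 0.0780 without FL replicate 1, 2 or 3, 0.119 without vector replicate 1 and 0.0554 without vector replicate 3. The cause was not tested.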

How the results depend on the processing

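Of 21 counts of HOX members, 12 stayed within 1.5 times under every alternative run. Of 124 single-gene results, 102 kept their direction and side of the threshold, and none of either kind reversed (38 settings). For dEx1 against vector in SK-N-SH, 1 member passed, against 2 with DESeq2, 2 with a replicate block, 2 with all 27 libraries in 1 fit and 0 with the 6 libraries compared, and 0 to 4 without 1 library. HOXD8 had an adjusted p of 0.0509 with the 6 libraries and 0.396 with all 27. For dEx1 against FL in SK-N-SH, 2 passed, against 1 with the filter at 2 CPM, 4 with DESeq2, 4 with the replicate block, 5 with all 27 libraries and 0 to 3 without 1 library. In QGP-1, DESeq2 called 2 members for FL and 2 for dEx1 against vector, where edgeR called 0. No share of all genes is given for DESeq2 or any other alternative, so the counts under alternatives have none beside them. BON-1 against QGP-1 gave 14, and 9 to 15 without 1 library. For differences between lines edgeR called 0. For FL, SK-N-SH minus BON-1 gave 1 with DESeq2, 1 with the replicate block and 0 to 1 without 1 library, and SK-N-SH minus QGP-1 gave 3 with DESeq2 and 2 with the block. For dEx1, SK-N-SH minus BON-1 gave 3 with DESeq2, 3 with the block and 0 to 3 without 1 library, and SK-N-SH minus QGP-1 gave 3, 4 and 0 to 3. The cause was not tested. In SK-N-SH, same-number libraries correlated at 0.048 to 0.461. Replicate 1 was under the limit of 0.1 (0.048 to 0.097), and replicates 2 and 3 were over it (0.253 to 0.461). Whether the numbers pair these libraries was not settled, and the main fit used no block. The block changed no call in BON-1 or QGP-1. Depth limits members near the floor of 0.115 to 0.210 CPM.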

Other observations

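Some HOX genes of the pancreatic lines followed the replicate number across constructs. In QGP-1, replicate 1 was lowest within FL, within dEx1 and within vector for HOXA10, HOXA11, HOXA13, HOXB5, HOXC13 and HOXD1. These were 6 of 16 members at 1 CPM or more, beside 16.1% of genes at that level. Replicate 3 was highest in each group for HOXA11, HOXA13, HOXB5 and HOXC13, 4 of 16, beside 18.9% of genes. It was lowest in each group for HOXB13 and HOXD3, 2 of 16, beside 11.4% of genes. In BON-1, replicate 3 was lowest in each group for HOXA7, HOXA11, HOXB2, HOXB13 and HOXC10.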
